A study of Homo sapiens with 3 samples.

Results

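The 10 genes described here were long non-coding RNAs (lncRNAs) with a known link to cancer: UCA1, MALAT1, NEAT1, PVT1, H19, HOTAIR, MIR31HG, MIR22HG, KCNQ1OT1 and NORAD. They were taken by gene symbol from a table of 58381 genes, and all 10 were found. RNA was sequenced from T24 cells, a human bladder carcinoma (BC) line, in 3 conditions with 1 library each. Ctrl cells had the treatment label Empty, which the labels do not explain, RT cells were irradiated, and RT + shHDAC6 cells were irradiated and carried a short hairpin RNA (shRNA) against the deacetylase HDAC6. The protocol text that all 3 samples share gives a lentiviral shRNA vector, a control pLKO.1 vector, selection with puromycin, and 10 Gy from a 137Cs source. It does not say which of the Ctrl and RT cells carried the control vector, and the time between irradiation and harvest was not given in the sources used here. The paper calls the RT cells of its RNA sequencing parental. RT + shHDAC6 may therefore also differ from RT in viral transduction and puromycin selection, which cannot be told apart from the shRNA here. There was no library of unirradiated knockdown cells, so the knockdown was measured only in irradiated cells.

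lncRNAs are transcripts that are processed much like messenger RNA but are not translated into a known protein. Many act as scaffolds or decoys for proteins, others are the precursors of microRNAs, and some silence the genes around them on the same chromosome. In bladder cancer UCA1 takes its name from urothelial carcinoma, where it is abundant, while MALAT1, NEAT1, PVT1, H19 and HOTAIR are studied as markers of many tumours.

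With 1 library per condition no difference below has a replicate check, and no test was run. Each ratio is given with a 95% Clopper-Pearson interval, and each level with an exact Poisson interval. Reads are not independent molecules, so both cover counting error only. Levels are CPM (counts scaled to a common library size) after TMM normalisation, and ratios are on the log2 scale of these values. In bulk RNA a smaller share of expressing cells and less RNA per cell cannot be told apart. The libraries held 35424086 to 41811165 counts, of which 1.16% to 1.32% lay on annotated lncRNA genes and 3.75% to 6.09% on mitochondrially encoded genes. The T24 label was checked on 19 marker genes. VIM, CD44 and the simple epithelial keratin KRT18 were abundant, while the keratins KRT8 and KRT19 had 13.1 to 33.3 CPM. KRT7, another simple keratin, had 3533 counts in Ctrl, 3854 after RT and 597 with RT + shHDAC6 (log2 -2.75 against RT). The basal markers KRT5 and TP63 had 257 to 478 and 28 to 92 counts. The uroplakins and KRT20 of differentiated urothelium had 0 to 18 counts. The transcription factors GATA3 and PPARG of the same tissue had 352 to 2320, and 4 markers of other cell types summed to 8.44 to 13.7 CPM. HDAC6 itself had 3098 counts in Ctrl, 2383 after RT and 2170 with RT + shHDAC6, so its RNA in the knockdown library stood at 87.2% of RT (log2 -0.20, interval -0.28 to -0.11).

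The sequences below show features by which these RNAs act or are captured. NORAD, a cytoplasmic RNA that binds Pumilio proteins, carried 15 copies of their motif TGTANATA in its transcript of 5401 bases. The search was on the transcript strand of the canonical transcript of each gene in GENCODE release 44. The copies began between base 819 and base 4657, and the first, a middle and the last of them are printed with the motif in capitals, each as it reads on the minus strand of GRCh38.
NORAD chr20:36050182-36050211: tggaaggcctgTGTATATAatatgaaaaag
NORAD chr20:36048477-36048506: gaataacacttTGTAAATAgcttttaaaaa
NORAD chr20:36046344-36046373: attagcctattTGTAAATAcctttgttata
Of the other 9 lncRNAs, NEAT1 held 6 copies and HOTAIR 3, and the remaining 7 held 0; of KCNQ1OT1 only a canonical transcript of 679 bases was searched. The motif was present in 9.77% of 18866 lncRNA transcripts and in 27.7% of 20046 protein-coding transcripts. Only 4 lncRNA transcripts, NORAD included, and 2 protein-coding transcripts had at least 15 copies.

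MALAT1 and the long form of NEAT1 do not end in an added poly(A) tail. RNase P cuts them just before a small tRNA-like RNA, and a stretch of A encoded in the genome forms their end. The 70 bases before the annotated small RNA are shown for both on the plus strand of GRCh38, with the longest run of A in capitals.
MALAT1 chr11:65506047-65506116: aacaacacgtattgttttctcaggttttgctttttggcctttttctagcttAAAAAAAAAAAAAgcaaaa
NEAT1 chr11:65445471-65445540: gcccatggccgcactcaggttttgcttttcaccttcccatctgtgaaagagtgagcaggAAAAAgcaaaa
The run was 13 bases in MALAT1 and 5 in NEAT1, and the longest stretch that the windows shared was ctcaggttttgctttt, of 16 bases. The labels name a library kit that selects polyadenylated RNA. The rows of both small RNAs were at 0 counts in all 3 libraries.

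H19, MIR31HG and MIR22HG are precursors of microRNAs. The mature forms best known from each are given with the seed (bases 2 to 8), by which a microRNA recognises its targets, in capitals. The sequences are from RefSeq (GRCh38.p14, minus strand).
hsa-miR-675-5p in H19, chr11:1996800-1996822: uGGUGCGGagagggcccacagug
hsa-miR-31-5p in MIR31HG, chr9:21512158-21512178: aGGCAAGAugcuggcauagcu
hsa-miR-22-3p in MIR22HG, chr17:1713914-1713935: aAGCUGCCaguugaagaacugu
No seed was shared among the 3. Annotated microRNA genes also lie inside PVT1, such as MIR1204, and inside NEAT1 (MIR612), but PVT1 was left out of the search for mature sequences. The libraries do not measure mature microRNAs, and the rows of the microRNA genes held 0 counts for MIR675 and MIR22 and at most 2 for MIR31.

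RefSeq promoter sequences (GRCh38.p14, windows of 300 bases around the start) were matched for 5 of the 10 genes, namely MIR31HG, H19, MALAT1, MIR22HG and NORAD, with 6 entries. UCA1, NEAT1, HOTAIR and KCNQ1OT1 had none, and PVT1 was left out of this search too. The 6 entries were searched on both strands for 6 motifs. These were the TATA box as TATAAA, the E-box as CACGTG, the cAMP response element as TGACGTCA, the AP-1 site as TGANTCA, the GC box as GGGCGG and the CCAAT box by its name. The downstream start of MALAT1 held TATAAA 30 bases before the start, a motif of 11.5% of 35116 promoters, and it is shown because it was the only one of the 6 windows with this box.
MALAT1 chr11:65498795-65499094, plus strand: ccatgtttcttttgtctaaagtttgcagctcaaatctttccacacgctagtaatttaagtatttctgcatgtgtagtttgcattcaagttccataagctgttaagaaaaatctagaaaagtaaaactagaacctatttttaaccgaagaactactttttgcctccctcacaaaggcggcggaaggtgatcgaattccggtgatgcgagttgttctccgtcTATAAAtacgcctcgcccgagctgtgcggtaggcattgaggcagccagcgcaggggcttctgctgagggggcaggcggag
The upstream start of MALAT1 held GGGCGG 5 times instead. NORAD held CACGTG once, as did 7.26% of all promoters, while MIR31HG and MIR22HG held GGGCGG 4 and 3 times, a motif of 45.0% of all promoters. None of the 6 motifs was found in the H19 window.

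The first comparison asked how irradiation changed these RNAs. UCA1 was 3.34-fold higher in RT than in Ctrl, PVT1 was 1.71-fold higher, and MIR22HG and MALAT1 were higher by smaller ratios. NEAT1 stood at 49.6% of its Ctrl level, H19 at 40.2% and NORAD at 78.0%. Differentially expressed genes (DEGs) were called by a re-implementation of NOISeq, at a probability over 0.4. The method and threshold were taken from the study. The paper reports other numbers of DEGs for both comparisons, so the calls here are not its DEG lists. By this re-implemented call, 4 of the 10 were higher in RT (UCA1, MALAT1, PVT1 and MIR22HG), against 19.7% of all 32923 genes with a count. Another 4 were lower (NEAT1, H19, HOTAIR and NORAD), against 20.5%. With library totals in place of TMM the same numbers of the 10 were called, and the shares of all genes were 12.5% and 30.8%. With TMM, 42.8% of genes with at least 100 counts, as 6 of the 10 had, were called higher and 33.8% lower. MIR31HG, just under the threshold, was called higher with another seed, more noise samples, values per kilobase, median of ratios or zeros set to 1. HOTAIR was called on 9 against 2 counts, and its interval spanned 0. Of the 9 with 10 counts or more in the higher library, 1 passed a 2-fold rule upward (UCA1; 4.81% of 20267 genes) and 2 downward (NEAT1 and H19; 9.17%). The median log2 ratio was -0.02 over all 10 and 0.33 over these 9, without HOTAIR, and that of all genes at this depth was -0.06. Scaling by library totals would move this last value to -0.28 and every ratio of RT to Ctrl down with it, but none of the 10 changed sign.

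The second comparison set irradiated cells with the HDAC6 shRNA beside irradiated cells without it, which may also differ in transduction and selection. UCA1 in RT + shHDAC6 was at 34.7% of its RT level, MIR31HG at 53.1% and PVT1 at 70.5%, while NEAT1 was 2.30-fold higher. DEG calls were made upward for 2 of the 10 (NEAT1 and NORAD), against 13.4% of all 31682 genes, and downward for 5 (UCA1, MALAT1, PVT1, MIR31HG and MIR22HG), against 16.1%. With library totals 3 of the 10 were called higher (NEAT1, HOTAIR and NORAD), against 19.9% of all genes. Another 3 were called lower (UCA1, PVT1 and MIR31HG), against 11.6%. With TMM, 23.95% of genes with at least 100 counts, as 6 of the 10 had, were called higher and 31.2% lower. By the 2-fold rule 1 was higher (NEAT1; 4.35% of 19013 genes) and 1 was lower (UCA1; 4.78%). The median log2 ratio was 0.0056 over all 10 and -0.15 over the 9 with enough counts, again without HOTAIR, against -0.0032 for all genes. Both comparisons use the RT library, so their values are not independent.

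**Figure D1:**
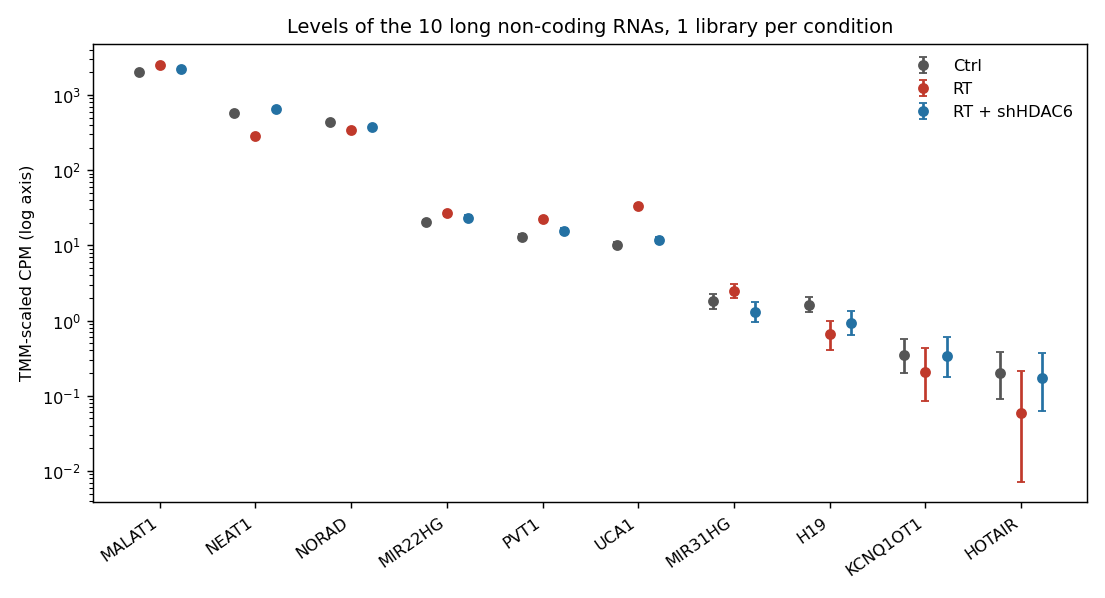
TMM-scaled CPM (log axis) of the 10 lncRNAs in Ctrl (grey), RT (red) and RT + shHDAC6 (blue); points are single libraries and bars are exact 95% Poisson intervals. MALAT1 lay at 1992 to 2501 CPM and HOTAIR at 0.0596 to 0.198 CPM, UCA1 had its high point in RT, and NEAT1 its low point in RT.

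**Figure D2:**
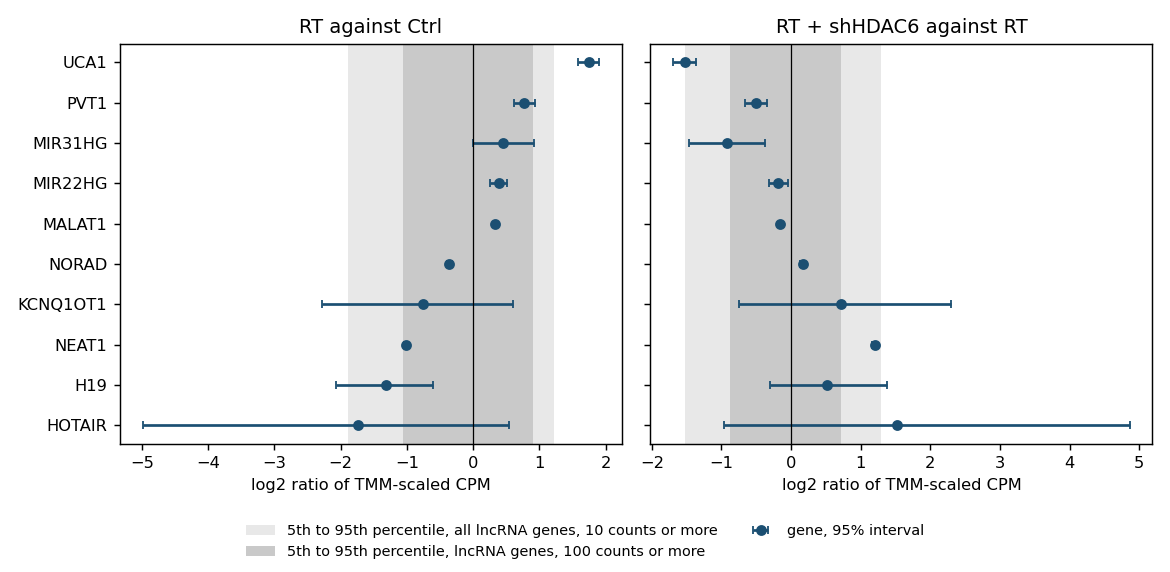
Log2 ratios of the 10 lncRNAs for RT against Ctrl (left) and RT + shHDAC6 against RT (right), with 95% intervals; light and dark bands span the 5th to 95th percentile of lncRNA genes with 10 or more and 100 or more counts in the higher library. Outside the dark band lay UCA1 (1.74), H19 (-1.31) and HOTAIR (-1.73) on the left. On the right UCA1 (-1.53), MIR31HG (-0.91), NEAT1 (1.20) and HOTAIR (1.52) lay outside it. H19, MIR31HG and HOTAIR had fewer than 100 counts, so the dark band does not cover genes of their depth. H19 and HOTAIR on the left and MIR31HG on the right lay inside the light band. HOTAIR had at most 9 counts in any library, too few for either band.

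UCA1 (ENSG00000214049, chr19:15828206-15836328, plus strand, 5 exons) is an oncogenic lncRNA of urothelial carcinoma. It had 458 counts in Ctrl, 1133 after RT and 411 with RT + shHDAC6, or 10.1, 33.8 and 11.7 CPM. RT was the high library, and its Poisson interval of 31.8 to 35.8 CPM did not overlap those of the others. The log2 ratio of RT to Ctrl was 1.74 (1.58 to 1.90), and that of RT + shHDAC6 to RT was -1.53 (-1.69 to -1.36). Among 4048 genes whose mean count in Ctrl and RT lay within 2-fold of that of UCA1, 6 had a higher ratio. For RT + shHDAC6 against RT, 28 of 4029 such genes had a lower one. RT + shHDAC6 and Ctrl differed by 0.22 (0.02 to 0.41). By count UCA1 was the lncRNA of rank 182 in Ctrl, 49 after RT and 154 with RT + shHDAC6.

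The gene lies in a quiet stretch of chromosome 19. Its nearest protein-coding neighbours, the olfactory receptor gene OR10H1 and the fatty acid hydroxylase gene CYP4F2, had at most 2 counts in any library. LINC01764, an antisense lncRNA over 26.1% of the exon bases of UCA1, had 3, 6 and 0 counts. Among 12075 genes with a mean of at least 100 counts, the 3 whose pair of log2 ratios lay nearest to that of UCA1 over the 3 libraries were G0S2 (distance 0.11), CCN2 (0.20) and P3H2 (0.26). Only 2 genes lay within 0.2. G0S2 inhibits the lipase ATGL, CCN2 encodes the matrix-associated growth factor CTGF, and P3H2 a collagen prolyl hydroxylase. CCN2 had 2726 counts in Ctrl, 6734 after RT and 2127 with RT + shHDAC6, with ratios of 1.74 and -1.72.

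A list of 12 genes linked to UCA1 in the literature held its transcription factors, its binding proteins and its reported effectors, and 10 had at least 10 counts. None passed the 2-fold rule in RT against Ctrl, where 3 were called higher and 3 lower and the median log2 ratio was -0.05 (0.01 with median of ratios). Among all genes with at least 100 counts, as 9 of the list had, 42.8% were called higher and 33.8% lower in RT, and 23.95% and 31.2% in RT + shHDAC6 against RT. ETS2, a transcription factor reported to bind the UCA1 promoter, had 4865 counts in Ctrl, 3488 after RT and 1283 with RT + shHDAC6. It was level between Ctrl and RT (log2 -0.04) and low in RT + shHDAC6, at -1.50 against RT, the 1 gene of the list past 2-fold there, where 4 were called higher and 2 lower and the median was 0.09. PTBP1, a splicing factor that binds UCA1, was higher in RT by 0.48, and the repressor ZEB1 was at -0.39. HIF1A, the hypoxia factor, was at -0.33 in RT and at 0.40 in RT + shHDAC6 against RT, and the cell cycle inhibitor CDKN1B was at 0.05 and -0.44.

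PVT1 (ENSG00000249859, chr8:127794526-128187101, plus strand) lies next to the MYC oncogene and is gained with it in many tumours. It had 589 counts in Ctrl, 743 after RT and 547 with RT + shHDAC6, or 12.99, 22.2 and 15.6 CPM. RT was again the high library, by 0.77 (0.61 to 0.93) against Ctrl, and RT + shHDAC6 lay at -0.50 (-0.67 to -0.34) against RT. Of 3793 genes of like count, 7.01% had a higher ratio for RT against Ctrl. MYC, 51.6 kb away, had 4415, 4675 and 5438 counts, with ratios of 0.52 (0.46 to 0.58) and 0.16. MYC was higher in both irradiated libraries than in Ctrl. So was PVT1, by 0.27 (0.10 to 0.44) in RT + shHDAC6, where it was lower than in RT and MYC was not. The pattern of PVT1 was common, with 239 of 12075 genes within 0.2 of it, and the nearest were BRME1, TUSC3 and ARPC1B.

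MALAT1 (ENSG00000251562, chr11:65497640-65508073, plus strand, 1 exon) resides in nuclear speckles, the stores of splicing factors. It had 90333 counts in Ctrl, 83895 after RT and 78737 with RT + shHDAC6, or 1992, 2501 and 2249 CPM. It was the lncRNA with the most counts in each library and ranked 18, 20 and 21 among all genes. RT was higher than Ctrl by 0.33 (0.31 to 0.34), and RT + shHDAC6 against RT was at -0.15 (-0.17 to -0.14). The counting intervals are narrow because the counts are large. Of 57 genes of like count, 31 had a higher ratio for RT against Ctrl, with a median of 0.45 over the 57. MALAT1 thus did not stand out from genes as abundant as itself. Genes annotated in release 44 on the opposite strand covered 83.7% of its exon bases, and only a part of these genes is in the counted table.

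Proteins of the nuclear speckle, 15 genes, were called higher in RT for 14 and lower for 0, with a median log2 ratio of 0.25 (0.03 with library totals). All genes with at least 100 counts had a median of 0.05, and 42.8% of them were called higher and 33.8% lower. The 4 with the largest ratios were SRSF2 (0.63), SRRM2 (0.55), PNN (0.48) and SRSF6 (0.46), which are splicing factors or speckle scaffold proteins. None reached 2-fold. With the shRNA 3 were called higher and 3 lower against RT, with a median of 0.03. Of all genes with at least 100 counts, 23.95% and 31.2% were. SRSF5 (0.47) and PNN (0.41) were the highest and SRSF11 (-0.32) was the lowest, so MALAT1 and this list both had small ratios.

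NEAT1 (ENSG00000245532, chr11:65422774-65445540, plus strand) is the scaffold of paraspeckles, nuclear bodies that form around its long form. The count is for the whole gene and does not tell the short form from the long one, which share the start. It had 26067 counts in Ctrl, 9568 after RT and 22956 with RT + shHDAC6, or 575, 285 and 656 CPM. RT was the low library and the others lay close together. The log2 ratio of RT to Ctrl was -1.01 (-1.04 to -0.98), and that of RT + shHDAC6 to RT was 1.20 (1.17 to 1.24). It lay at 0.19 (0.16 to 0.22) for RT + shHDAC6 against Ctrl. Scaling by median of ratios put the first ratio at -0.95, under the 2-fold mark. Of 676 genes of like count 1 had a lower ratio for RT against Ctrl, and of 689 genes 0 had a higher ratio for RT + shHDAC6 against RT.

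NEAT1 and MALAT1 are neighbours on chromosome 11, and in RT their ratios to Ctrl had opposite signs. FRMD8, 9.25 kb from NEAT1 on its other side, had 3297, 2504 and 3836 counts, with ratios of 0.04 (-0.04 to 0.11) and 0.55. Over the 3 libraries, the genes nearest to NEAT1 in pattern were the phospholipase gene PLCB1 (distance 0.04), the sulfotransferase gene CHST15 (0.096) and the GTPase regulator AGAP2 (0.097), and 7 genes lay within 0.2.

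The 15 paraspeckle protein genes mostly had small ratios. In RT 10 were called higher and 3 lower, against 42.8% and 33.8% of all genes with at least 100 counts, with a range of -0.34 to 0.64 and a median log2 ratio of 0.12 that turned to -0.10 with library totals. RBM14, a protein needed to assemble paraspeckles, was the highest at 0.64, followed by the cleavage factor CPSF7 at 0.46. NUDT21, another cleavage factor subunit, was the lowest at -0.34. In RT + shHDAC6 against RT 2 were called higher and 3 lower, against 23.95% and 31.2% of all genes with at least 100 counts. The median was -0.02, or 0.06 with library totals. NUDT21 was the highest there at 0.28. PSPC1, a core paraspeckle protein, was called lower in RT at -0.17 and higher in RT + shHDAC6 against RT at 0.23, the directions of NUDT21 and NEAT1. The other core proteins NONO and SFPQ were at -0.10 and -0.07 in RT + shHDAC6 against RT, where NEAT1 was at 1.20.

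NORAD (ENSG00000260032, chr20:36045618-36051018, minus strand, 1 exon) is induced by DNA damage in some cells and keeps Pumilio proteins from their messenger RNA targets. It had 19701 counts in Ctrl, 11364 after RT and 13299 with RT + shHDAC6, or 434, 339 and 380 CPM. RT was the low library. The log2 ratio of RT to Ctrl was -0.36 (-0.39 to -0.33), and that of RT + shHDAC6 to RT was 0.16 (0.13 to 0.20), so RT + shHDAC6 lay between the others. Of 856 genes of like count 11.3% had a lower ratio for RT against Ctrl. Among 8 genes of proteins that bind NORAD, 4 were called higher and 4 lower in RT, against 42.8% and 33.8% of all genes with at least 100 counts, with a median of 0.02 (-0.20 with library totals). For the knockdown, 1 was called higher and 2 lower against RT, with a median of -0.04 (0.04 with library totals). Of all genes with at least 100 counts, 23.95% and 31.2% were. The Pumilio gene PUM2 was lower in RT, at -0.27, as was KHDRBS1 (SAM68), at -0.35. PRPF19 was the highest at 0.39, and RBMX, which assembles a complex on NORAD, was at 0.29. EPB41L1, the nearest protein-coding gene at higher coordinates, had 3621, 1463 and 1264 counts and a ratio of -0.87 in RT.

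H19 (ENSG00000130600, chr11:1995166-2004552, minus strand) is a maternally expressed imprinted lncRNA of fetal tissue that is often switched on again in bladder tumours. It had 74 counts in Ctrl, 22 after RT and 33 with RT + shHDAC6, or 1.63, 0.656 and 0.942 CPM. Ctrl was the high library, and the interval of RT + shHDAC6 overlapped that of RT and, at its edge, that of Ctrl. The log2 ratio was -1.31 (-2.07 to -0.61) for RT against Ctrl. RT + shHDAC6 against RT was at 0.52 with an interval of -0.30 to 1.37, so no difference was detectable at this depth. Of 3620 genes of like count 4.17% had a lower ratio for RT against Ctrl. MRPL23, a mitochondrial ribosomal protein gene 10.6 kb away, had 938, 34 and 18 counts. Its ratio of -4.35 (-4.89 to -3.86) was farther from 0 than that of H19. IGF2, the paternally expressed partner of H19, had 7, 2 and 1 counts.

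KCNQ1OT1 (ENSG00000269821, chr11:2597308-2700003, minus strand) is transcribed from within KCNQ1 and silences the neighbouring imprinted domain on the paternal chromosome. It had 16 counts in Ctrl, 7 after RT and 12 with RT + shHDAC6, and no difference was detectable. The interval of its log2 ratio was -2.28 to 0.60 between RT and Ctrl and -0.75 to 2.30 between RT + shHDAC6 and RT. Some genes of the domain had more reads. A list of 8 genes of the domains around H19 and KCNQ1OT1, chosen with earlier results of these data known, held 4 with at least 100 counts. In RT + shHDAC6 against RT all 4 were called higher, as were 23.95% of all genes with that many counts, and 3 were past 2-fold, as were 0.995%. Because the list was chosen in this way, these shares are a description and no independent support. PHLDA2, a placental growth restrictor, had 315 counts in Ctrl, 234 after RT and 672 with RT + shHDAC6, a ratio of 1.46 to RT. SLC22A18 was at 1.20 and OSBPL5 at 1.02. CDKN1C, the cell cycle inhibitor that KCNQ1OT1 is known to silence, had 4 and 11 counts, with an interval of -0.36 to 3.50, so no difference was detectable. NAP1L4 was at 0.10. The other 3 genes of the list, KCNQ1, IGF2 and SLC22A18AS, had at most 6 counts in both libraries. In RT against Ctrl the median was -0.27 over the 6 genes with at least 10 counts and 0.08 over those 4 with at least 100, and CDKN1C had 18 counts in Ctrl and 4 in RT.

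HOTAIR (ENSG00000228630, chr12:53962308-53974956, minus strand) is read from the HOXC cluster and binds the Polycomb repressive complex 2 and the LSD1 complex. It had 9 counts in Ctrl, 2 after RT and 6 with RT + shHDAC6, at most 0.198 CPM. The ratio of RT to Ctrl was -1.73 with an interval of -4.98 to 0.54, and that of RT + shHDAC6 to RT was 1.52 with an interval of -0.96 to 4.86. HOTAIR was thus near the limit of detection, which a count of 0 puts at 3 counts or 0.0662 to 0.0894 CPM. The 10 genes of its partner complexes were all expressed. In RT 2 were called higher and 5 lower (42.8% and 33.8% of all genes with at least 100 counts), and in the knockdown library 3 and 1 (23.95% and 31.2%), with a median of -0.13 in RT against Ctrl, and of 0.04 in RT + shHDAC6 against RT. The corepressor RCOR1 (-0.49), JARID2 (-0.37) and REST (-0.34) were lower in RT and EED (0.35) was higher.

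The HOX genes next to HOTAIR and at its reported target, the HOXD cluster, included several with a higher level in the knockdown library. Of 13 genes, a list chosen with earlier results of these data known, 8 had at least 10 counts. In RT against Ctrl 1 was called higher and 1 lower, with a median of 0.0028 (-0.21 with library totals). Of all genes with a count 19.7% and 20.5% were, and of those with at least 100 counts 42.8% and 33.8%. In RT + shHDAC6 against RT 6 of the 8 were called higher and 0 lower. Called higher were 13.4% of all genes with a count and 23.95% of those with at least 100, as 5 of the 8 had. Of the 8, 5 passed 2-fold upward, as did 4.35% of genes with at least 10 counts. Because of how the list was chosen, these shares are a description and no independent support. The median of the 8 was 1.02, and the 5 genes left out had at most 8 counts in any library. HOXD10 had 103 counts in Ctrl, 103 after RT and 351 with RT + shHDAC6, a ratio of 1.71 to RT. HOXC4 (62 against 133 counts) was at 1.04 and HOXC9 (87 and 182) at 1.003. HOXD9 was at 0.18 and HOXC10, the nearest expressed neighbour of HOTAIR, was at 1.28 on 13 and 33 counts. The remaining gene past 2-fold, HOXD11, had 14 and 70 counts; it was named after its values were seen. These counts are small, and HOTAIR itself had too few reads to be set beside them.

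MIR31HG (ENSG00000171889, chr9:21380073-21559891, minus strand) hosts the microRNA of the sequence shown above and overlaps genes of the interferon cluster. It had 82 counts in Ctrl, 83 after RT and 46 with RT + shHDAC6, or 1.81, 2.47 and 1.31 CPM. RT + shHDAC6 was below RT, at -0.91 (-1.47 to -0.38), and its interval overlapped that of Ctrl. The ratio of RT to Ctrl was 0.45, with an interval of -0.01 to 0.91. IFNE, an interferon gene inside MIR31HG on the same strand that shares no exon base with it, had 37, 40 and 20 counts, and its ratios of 0.55 and -1.06 had the signs of those of MIR31HG. Whether reads of one transcript were counted for the other was not tested. The metabolic gene MTAP at higher coordinates had 2860, 2628 and 2373 counts, with ratios of 0.31 and -0.21.

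MIR22HG (ENSG00000186594, chr17:1711447-1717174, minus strand) is a stress-responsive host RNA. It had 925 counts in Ctrl, 892 after RT and 820 with RT + shHDAC6, or 20.4, 26.6 and 23.4 CPM. The ratios were 0.38 (0.25 to 0.52) and -0.18 (-0.32 to -0.05), and 27.0% of 4236 genes of like count had a higher ratio in RT. WDR81, which overlaps it on the other strand without a shared exon base, had 1451, 1813 and 2137 counts, a ratio of 0.76 in RT. TLCD2, 1.07 kb away on the same strand, had 365, 92 and 103 counts, a ratio of -1.55. The 13 genes of microRNA processing and action had a median of 0.20 in RT (-0.02 with library totals), with 8 called higher and 4 lower (42.8% and 33.8% of all genes with at least 100 counts). The highest were TARBP2 (0.68), XPO5 (0.65) and DGCR8 (0.60), partners in the cutting and export of precursors, and AGO4 was the lowest at -0.36. Between RT + shHDAC6 and RT their median was 0.01 and the ratios lay between -0.16 and 0.22.

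Levels of different genes were compared as CPM per kilobase of the canonical transcript. In Ctrl the order was MALAT1 (191), NORAD (80.4), NEAT1 (25.3), MIR22HG (7.09), PVT1 (5.31), UCA1 (4.27), H19 (1.48), MIR31HG (1.05), KCNQ1OT1 (0.520) and HOTAIR (0.0820). The intervals of H19 and MIR31HG overlapped, as did those of MIR31HG and KCNQ1OT1, and the other neighbours were separate. In RT UCA1 came at place 3 with 14.3, above NEAT1 at 12.5, and MIR22HG and PVT1 overlapped at 9.25 and 9.06, as did H19 and KCNQ1OT1. In RT + shHDAC6 the order was that of Ctrl, with NEAT1 at 28.8 and UCA1 at 4.96. The order depends on the length taken, and which length fits the counts was not tested. Reads were counted per gene on GENCODE release 28, and both lengths are from release 44. The canonical transcript can leave out exons whose reads were counted. With the union of all annotated exons PVT1 (25431 bases in place of 2444) came after UCA1 in Ctrl and RT + shHDAC6 too, as it did in RT by either length, KCNQ1OT1 (92625 in place of 679) came last, and UCA1 was at place 5 in RT.

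**Figure D3:**
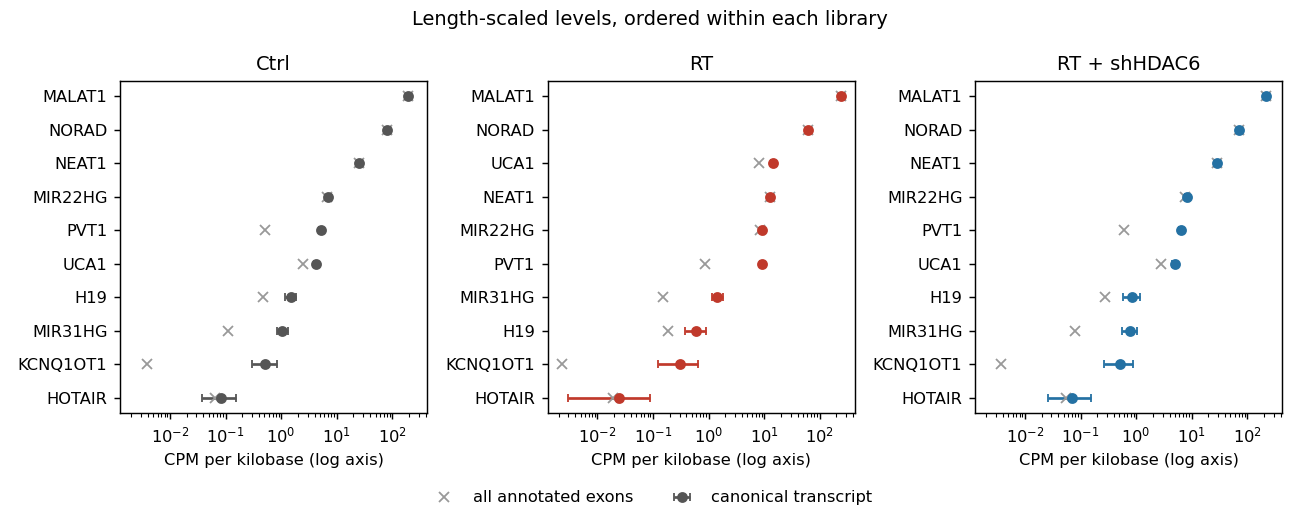
CPM per kilobase (log axis) of the 10 lncRNAs, ordered within Ctrl, RT and RT + shHDAC6; filled points use the canonical transcript with exact 95% Poisson intervals, and crosses use the union of all annotated exons. UCA1 stood at place 6 in Ctrl and RT + shHDAC6 and at place 3 in RT, and the crosses of PVT1, MIR31HG and KCNQ1OT1 lay far to the left of their points.

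The 10 lncRNAs held 25.1% of all lncRNA counts in Ctrl, 25.8% after RT and 26.7% with RT + shHDAC6. MALAT1 supplied 65.3%, 77.9% and 67.4% of the counts of the 10. Of 2784 lncRNA genes with at least 10 counts, 7.22% were 2-fold higher in RT than in Ctrl and 16.6% were 2-fold lower. For protein-coding genes these shares were 4.17% and 6.25%. With a minimum of 100 counts in the higher library those lncRNA shares were 3.81% and 6.003%, beside 4.24% and 2.19% of all genes with that minimum. For RT + shHDAC6 against RT 8.31% of 2431 lncRNA genes were 2-fold higher and 10.4% lower, and with at least 100 counts 2.64% and 4.58%, beside 0.995% and 2.15% of all genes.

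A list of 40 other lncRNAs with a cancer or damage link, of which 39 were found and 30 had at least 10 counts, was set beside them. In RT 6 of the 30 were called higher and 11 lower, where 19.7% and 20.5% of all genes were. At 100 counts or more, which 23 of the 30 had, the shares of all genes were 42.8% and 33.8%. By the 2-fold rule 2 of the 30 were higher and 5 lower. Of all genes 4.81% and 9.17% were, and of lncRNA genes 7.22% and 16.6%. The median log2 ratio of the 30 was -0.19. ZFAS1, a snoRNA host, had 649 counts in Ctrl and 1450 after RT, a ratio of 1.59, and MIR17HG, the host of the miR-17 cluster, was at 1.33. MIR210HG, known from hypoxia, had 242 counts in Ctrl and 50 after RT, a ratio of -1.84, and LUCAT1, a stress-induced RNA, had 787 and 173, a ratio of -1.75. The other 3 lower ones, TP53TG1 (-1.07), LINC-PINT (-1.03) and CASC15 (-1.15 on 27 and 9 counts), were named because the count is small. In RT + shHDAC6 against RT the median was 0.14, with 13 called higher and 5 lower, where 13.4% and 16.1% of all genes were. At 100 counts or more, which 21 of the 30 had, the shares of all genes were 23.95% and 31.2%. Past 2-fold, 2 were higher, LUCAT1 at 1.07 and TINCR at 1.34 on 14 and 37 counts, and 0 were lower. TP53TG1 (0.94), LINC-PINT (0.62) and MIR100HG (-0.55) had the next largest ratios of those with at least 100 counts.

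**Figure D4:**
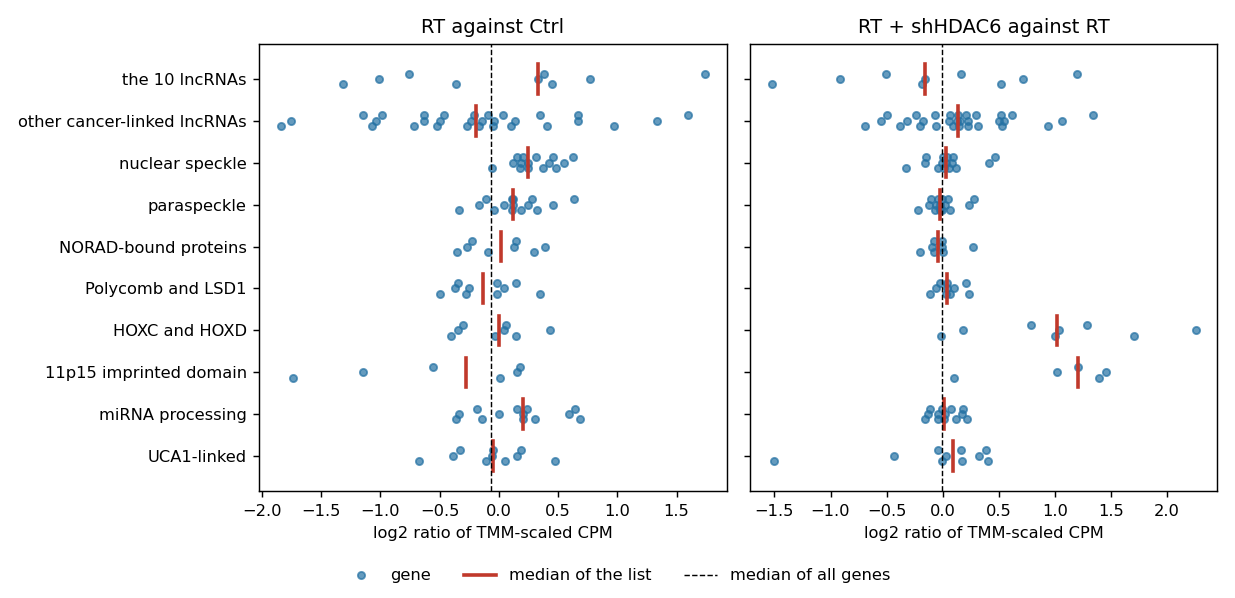
Log2 ratios of the genes of each list with 10 counts or more in the higher library, for RT against Ctrl (left) and RT + shHDAC6 against RT (right); points are genes, red lines list medians and the dashed line the median of all genes. On the right the HOX and imprinted domain lists sat to the right of the dashed line with medians of 1.02 and 1.20, and the other lists, with the 10 lncRNAs, had medians between -0.15 and 0.14. The lists were chosen with earlier results of these data known, so these medians are a description only.

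RT + shHDAC6 and Ctrl differ in irradiation and the shRNA, and perhaps in transduction and selection, so only values are given. UCA1, MALAT1, NEAT1, PVT1 and MIR22HG were above Ctrl by 0.17 to 0.27, with intervals that left out 0. With library totals these ratios were 0.04 to 0.13, and the intervals of UCA1, PVT1 and MIR22HG, shifted by the same step, spanned 0. H19 was below Ctrl at -0.79 (-1.43 to -0.18) and NORAD at -0.19 (-0.23 to -0.16). The intervals of MIR31HG (-0.46), HOTAIR (-0.21) and KCNQ1OT1 (-0.04) spanned 0.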

How the data were processed

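The labels name T24 cells in 3 conditions with 1 library each. The authors used cutadapt for trimming, STAR (version 2.6.1a in the submitters' processing notes) for alignment to GRCh38 and featureCounts on GENCODE release 28, and deposited raw whole-number read counts per gene. The strand and multi-mapping settings of the counting are not given in the sources used here, so reads of overlapping, antisense or paralogous genes could be shared. The labels name an Illumina TruSeq Stranded mRNA kit and the study's methods an Agilent SureSelect strand-specific kit. Of the table's columns 0 were unused.

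Symbols and positions came from GENCODE release 44 (57754 of 58381 identifiers matched). TMM, upper quartile (edgeR 4.0.16) and median of ratios (DESeq2 1.42.0) factors were computed in R 4.3.3, and no test of either package was run. DEGs were called by a re-implementation in Python 3.11.15 (numpy 2.4.6, numba 0.67.0) of NOISeq for data without replicates: counts of 0 set to 0.5, 5 noise samples of 20% of the depth per library, probability over 0.4. The call was tried on libraries simulated with counting error only, with 2-fold changes set in genes of at least 100 expected counts. That trial does not cover differences between cultures or changes in genes with fewer counts. The 2-fold rule was applied to genes with 10 counts or more in the higher library. Intervals (95%) used scipy 1.17.1.

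Named were all 10 lncRNAs, of each list at most the 4 genes with the largest log2 ratio among those with 100 counts or more in the higher library, the nearest protein-coding and overlapping genes of each locus, HDAC6, and the 3 genes nearest in pattern to the 3 members of widest spread. The text also names list genes chosen after their values were seen, for their known role or because few were counted. The members and lists were chosen with earlier results of these data known. Alternatives covered scaling, zeros, filters, the NOISeq settings, the fold and the exon length.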

Additional observations from a re-analysis of the deposited data

How the results depend on the processing

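No paired analysis was possible because each condition has 1 library, and leaving out a library would leave no comparison. The log2 ratio of each of the 10 lncRNAs kept its sign under every scaling and zero setting in RT against Ctrl and in RT + shHDAC6 against RT; in RT + shHDAC6 against Ctrl only KCNQ1OT1 changed sign. Scaling by library totals moved the median of all genes in RT against Ctrl from -0.06 to -0.28. For RT against Ctrl, median of ratios left 1 lncRNA 2-fold lower in place of 2 (H19), a probability over 0.8 left 1 DEG higher (UCA1) and 1 lower (NEAT1) in place of 4 and 4, and a 1.5-fold rule gave 2 higher (UCA1 and PVT1) in place of 1. For RT + shHDAC6 against RT, library totals gave 3 DEGs lower in place of 5, setting zeros to 1 gave 4 higher in place of 2, and a probability over 0.8 left 1 higher (NEAT1) and 1 lower (UCA1). A 1.5-fold rule gave 2 higher and 2 lower in place of 1 and 1. Union exon lengths kept 6 of the 10 places in Ctrl, 3 after RT and 6 with RT + shHDAC6. Over the other gene lists, requiring 100 counts gave 4 genes 2-fold lower in RT in place of 7, and 7 higher in RT + shHDAC6 in place of 11, with fewer genes tested. Alternatives for the lncRNA class were chosen after seeing the data. With 100 counts required, the 2-fold shares were 3.81% higher and 6.003% lower in RT, and 2.64% and 4.58% in RT + shHDAC6. Library totals gave 4.92% and 22.7% in RT and 10.0% and 9.01% in RT + shHDAC6, and median of ratios 14.8% lower in RT. The cause of these moves was not tested. Depth limits HOTAIR and KCNQ1OT1 in every comparison and H19 in RT + shHDAC6 against RT.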

Other observations

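Small RNA genes inside the lncRNAs had their own rows and few reads. SNORD39, inside MIR31HG on the same strand, had 9 counts in Ctrl, 4 after RT and 21 with RT + shHDAC6. Within PVT1, MIR1206 had 9, 10 and 14 counts, MIR1208 had 10, 5 and 1, and the snRNA gene RNVU1-32 had 11, 8 and 15. The 4 small RNA rows inside NEAT1 were at 0 in all 3 libraries.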
